A study of Mus musculus with 24 samples.

Results

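The chromatin around 9 genes of the cell polarity machinery was described in mouse skin stem cells before and after wounding: Pard3, Pard3b, Pard6b, Pard6g, Prkci, Prkcz, Dlg1, Scrib and Llgl2. The assay was ATAC-seq: a transposase cuts DNA that is not covered by nucleosomes, and the cut sites pile up into peaks. Overlapping peaks of the 8 deposited lists were joined into 63188 union regions. Each was given to the nearest protein-coding gene at most 50 kb away, with distance 0 inside a gene, and 91 of them fell to these 9 genes. In all, 52791 regions were assigned to 14826 genes. The genes were proposed because Pard3 was known to gain many regions in the wound lists, so the counts of gained regions below, those of Pard3 above all, describe the choice and carry no test.

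All mice were of a CD1 x C57BL/6J cross, and skin cells were released with trypsin and sorted by FACS. From unwounded skin of Krt19-CreER/R26-YFP mice, 4 samples of hair follicle stem cells were collected at day 0, and epidermal stem cells in 4 samples at day 0 and 3 at day 80. The same genotype with a partial-thickness wound gave cells labelled as hair follicle stem cell progeny that responded to the wound, with 3 samples at day 3, 2 at day 7 and 3 at day 80. Sox9-CreER/R26-YFP mice with a full-thickness wound gave cells labelled as wound-responsive progeny of epidermal stem cells, with 3 samples at day 7 and 2 at day 80. Below, the lists of these wounds are called the partial-wound and full-wound lists. In both genotypes the YFP reporter depends on a Cre driven by a follicle-expressed gene, Krt19 or Sox9. Each wound type goes with 1 genotype and 1 labelled cell of origin, so these cannot be told apart. Neither the age nor the sex of the mice is known here. Each group came as 1 peak list, which is why no error between samples, no test between groups and no p-value can be given. Shares carry exact Clopper-Pearson 95% intervals. These cover counting error only and treat the regions of a gene as if they were independent. The lists of unwounded epidermis were deposited under a name that calls them controls, and the peaks of the day 0 list carry a tag for day 7, so its day is in doubt. The day 80 epidermal list was therefore also used in its place. A region missing from a list may be accessible in fewer cells or to a lesser degree in each cell, which cannot be told apart in bulk data.

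The polarity complexes divide an epithelial cell into an apical and a basolateral domain. The scaffold Par3 brings the adaptor Par6 and atypical protein kinase C to the apical side and to cell junctions, while Scribble, Dlg and Lgl hold the lateral side, and each module keeps the other out, in part through phosphorylation by the kinase. In the epidermis the same proteins are known for junction assembly and for the orientation of the mitotic spindle, which sets whether a basal cell divides within its layer or into the layer above.

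With the exception of Pard3b, the outer start sites of these genes were accessible before and after wounding, and the lists parted mainly over regions inside the genes. RefSeq starts on GRCm38.p6, the assembly of mm10, were at hand for 6 members, which have 12 starts between them. A region covered 7 of the 12: the outer starts of Pard3, Pard6b, Prkci and Prkcz and 2 neighbouring starts of Dlg1 in all 8 lists, and the start of Pard3b in 6. The other 5, all of them starts further inside Pard3, Prkcz and Dlg1, were covered in no list. Over all 21263 starts, 38.1% lay in a region of all 8 lists and 47.7% in none. The sequences before 3 starts of Prkcz and those before the starts of Pard3b, Pard6b and Prkci are shown because they set a start accessible in every list beside starts accessible in some lists or in none. They are from RefSeq on GRCm38.p6, read in the direction of transcription. The 250 bases before each Prkcz start lie at chr4:155361429-155361678, chr4:155345790-155346039 and chr4:155344750-155344999 (minus strand). For Pard3b, Pard6b and Prkci they are the bases before the annotated gene at chr1:61638574-61638666, chr2:168080754-168081003 and chr3:30995521-30995741 (plus strand). Capitals mark the letters of the CCAAT box (CCAAT), the GC box (GGGCGGG), the E-box (CACGTG) and the TATA box (TATAAA) on either strand, and both GC boxes before the innermost Prkcz start overlap each other.
Prkcz outer start, 8 lists: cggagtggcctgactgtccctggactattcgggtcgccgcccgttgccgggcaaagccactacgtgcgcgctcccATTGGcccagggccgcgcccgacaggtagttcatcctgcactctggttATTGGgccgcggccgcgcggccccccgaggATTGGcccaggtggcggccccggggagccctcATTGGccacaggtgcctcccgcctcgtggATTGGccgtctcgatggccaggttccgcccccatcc
Prkcz middle start, no list: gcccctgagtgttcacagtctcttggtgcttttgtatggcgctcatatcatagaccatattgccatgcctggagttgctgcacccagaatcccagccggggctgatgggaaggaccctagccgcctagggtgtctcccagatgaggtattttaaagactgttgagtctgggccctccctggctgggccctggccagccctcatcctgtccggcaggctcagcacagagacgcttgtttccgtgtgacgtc
Prkcz innermost start, no list: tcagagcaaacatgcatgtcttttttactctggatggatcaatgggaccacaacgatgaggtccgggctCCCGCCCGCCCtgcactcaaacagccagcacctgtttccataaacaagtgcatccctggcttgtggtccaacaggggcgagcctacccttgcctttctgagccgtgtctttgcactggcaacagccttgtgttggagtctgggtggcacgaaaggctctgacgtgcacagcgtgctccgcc
Pard3b start, 6 lists: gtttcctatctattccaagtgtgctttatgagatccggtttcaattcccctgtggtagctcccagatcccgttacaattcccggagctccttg
Pard6b start, 8 lists: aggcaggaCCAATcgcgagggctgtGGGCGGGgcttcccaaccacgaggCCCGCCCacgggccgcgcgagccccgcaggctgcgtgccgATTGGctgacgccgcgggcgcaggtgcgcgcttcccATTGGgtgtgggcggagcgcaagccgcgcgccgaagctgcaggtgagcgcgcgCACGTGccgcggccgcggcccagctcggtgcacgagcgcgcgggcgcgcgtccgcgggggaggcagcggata
Prkci start, 8 lists: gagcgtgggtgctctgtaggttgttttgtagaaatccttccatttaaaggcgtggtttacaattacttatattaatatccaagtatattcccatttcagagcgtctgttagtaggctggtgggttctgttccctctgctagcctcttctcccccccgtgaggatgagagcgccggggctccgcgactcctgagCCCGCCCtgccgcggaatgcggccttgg

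The window before the outer Prkcz start held 5 CCAAT matches, a number reached by 0.259% of all starts and by 0.593% of those covered in all 8 lists. It was singled out after its count was seen. Pard6b had 3, which 3.36% of starts reached. At least 1 CCAAT stood before 35.4% of all starts, a GC box before 31.1%, an E-box before 6.63% and a TATA box before 11.6%. The window of the outer Prkcz start was 70.8% G and C with 25 CpG, those of the middle and innermost starts 58.0% with 7 and 56.8% with 10. Medians over all starts were 61.2% and 18 CpG where all 8 lists had a region and 48.8% and 3 CpG where none had. The Pard3b window, at 60.0% and 17 CpG over its 250 bases, lay near the first pair of medians although 2 lists lacked its region. No AP-1 letters (TGANTCA) stood in the 250 bases before any of the 12 starts. They stood before 6.13% of all starts.

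Of the 91 regions, 19 (20.9%, interval 13.1 to 30.7) were in all 8 lists, beside 22.0% of all regions. Of the 91, 31 were in the follicle list, 40 in day 0 and 44 in day 80 epidermis. The partial-wound lists of days 3, 7 and 80 held 52, 53 and 48, and the full-wound lists of days 7 and 80 held 65 and 48. The follicle list thus had the fewest and the day 7 full-wound list the most. As shares, the follicle list held 34.1% (24.5 to 44.7) of the polarity regions and 45.9% of all regions, and the day 7 full-wound list 71.4% (61.0 to 80.4) and 58.0%. In the day 3 and day 7 partial-wound lists the polarity share (57.1% and 58.2%) lay close to the share of all regions (56.6% and 55%).

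**Figure D1:**
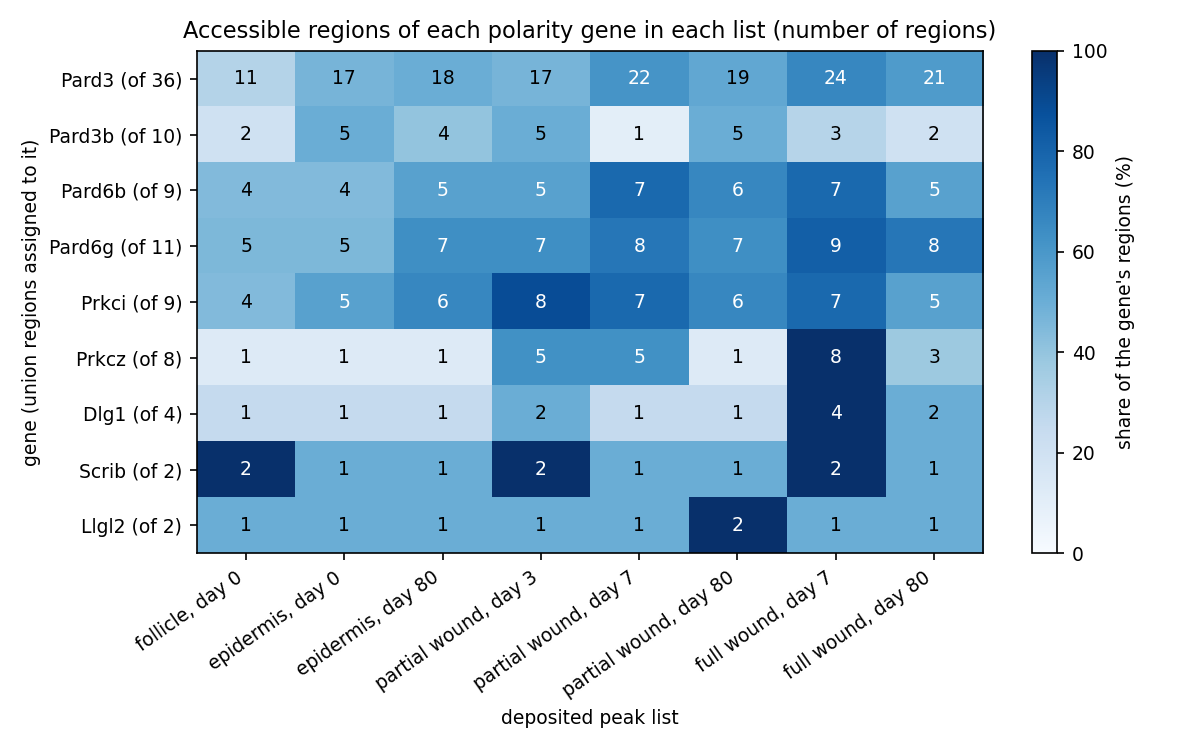
Number of union regions of each polarity gene (rows, with the total in brackets) held by each of the 8 peak lists (columns). Colour gives the share of the gene's regions in percent. Prkcz has 1 of 8 regions in the unwounded lists and 8 of 8 in the day 7 full-wound list, and Pard3b has 1 of 10 in the day 7 partial-wound list.

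**Figure D2:**
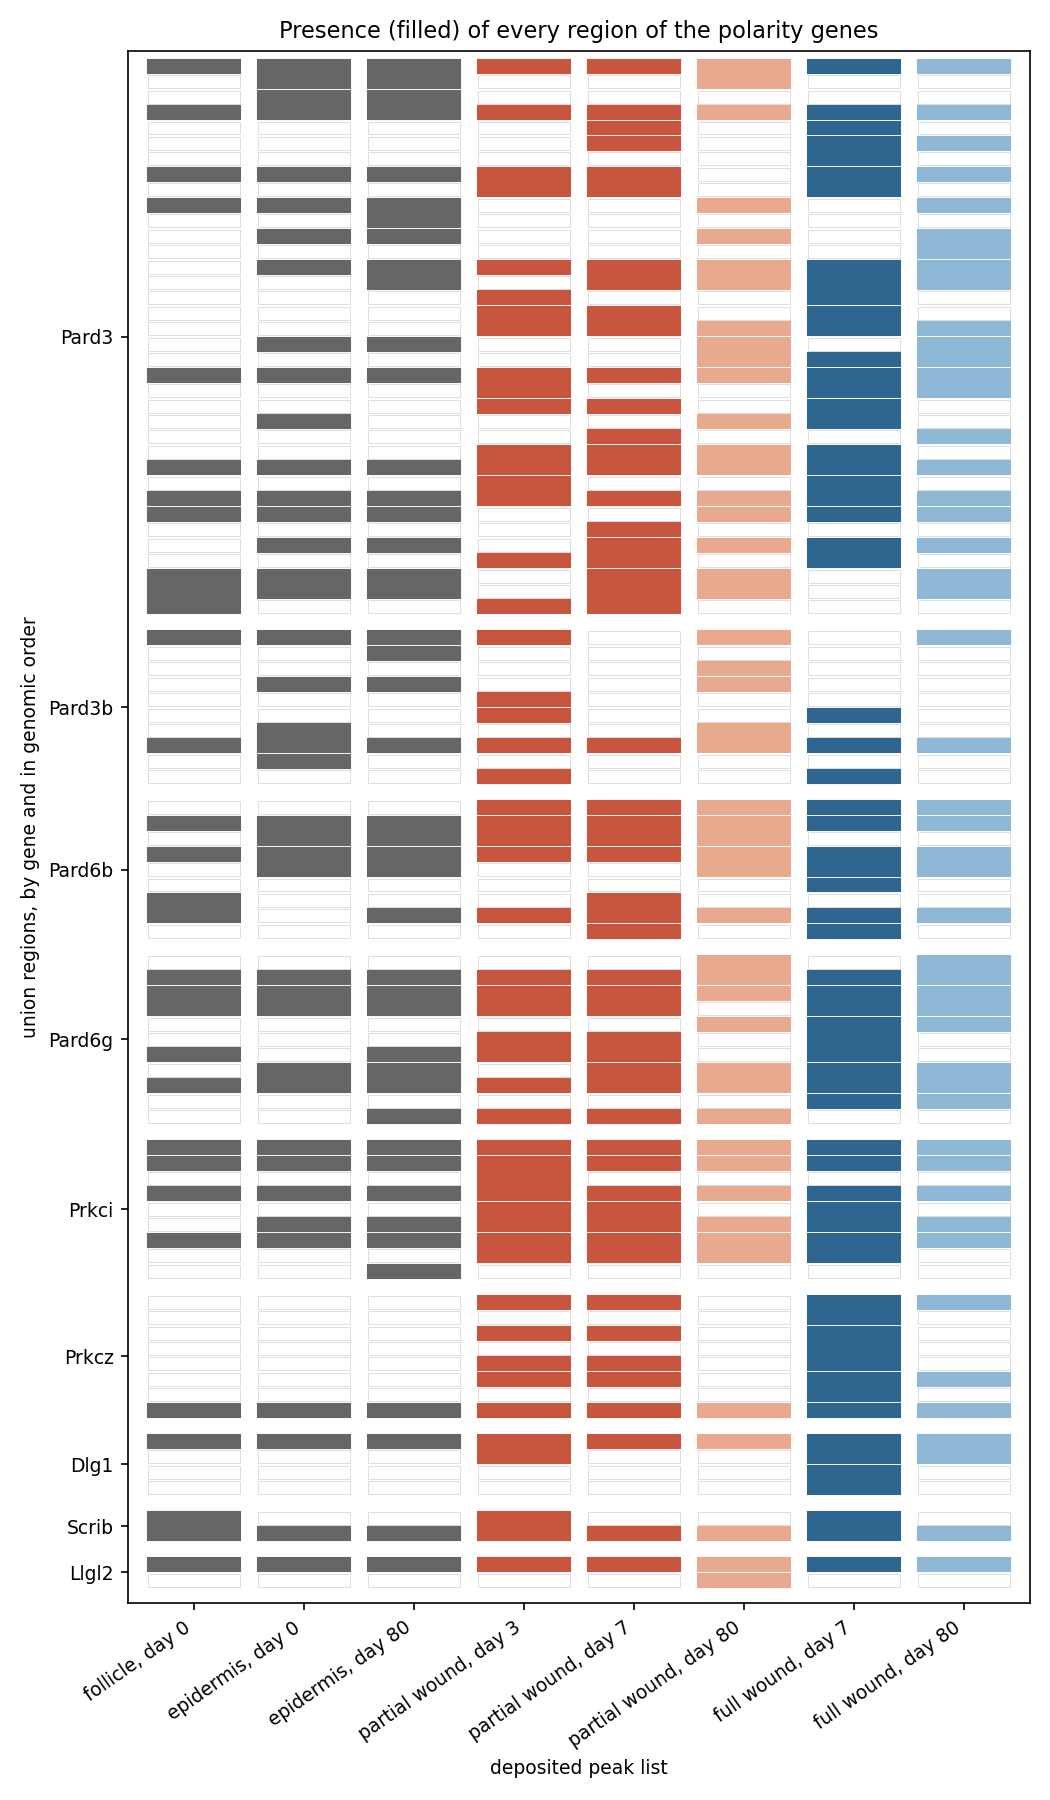
Presence of all 91 regions (rows, grouped by gene in genomic order) in the 8 lists (columns), with a filled cell where a peak of the list overlaps the region. Grey stands for unwounded skin, red for the partial-thickness and blue for the full-thickness wound, paler at day 80. Of these rows, 19 are filled across all 8 lists.

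A region was counted as gained when an early wound list had it (day 3 or 7 for the partial-thickness wound, day 7 for the full-thickness wound) and both day 0 lists lacked it. By this count the partial-thickness wound gained 29 of the 91 regions (31.9%, 22.5 to 42.5), beside 19.8% of all regions. The full-thickness wound gained 34 (37.4%, 27.4 to 48.1), beside 18.9%. Both wounds gained 24 of them, 82.8% of the former and 70.6% of the latter, while over all regions the gained sets shared 60.9% and 63.8%. The wounds are judged against the same day 0 lists and so are not independent. Both day 0 lists are of Krt19-CreER/R26-YFP mice, so the full-thickness gains, of Sox9-CreER/R26-YFP mice, have no reference of their own genotype. Most polarity regions, 80 of 91, lay over 1 kb from a gene end. Among such regions the shares were 35% (28 of 80) beside 22.4% for the partial-thickness wound and 42.5% (34 of 80) beside 21.4% for the full-thickness wound. These include Pard3. With Pard3 left out they were 14 of 45 (31.1%, 18.2 to 46.6) and 20 of 45 (44.4%, 29.6 to 60.0). The first interval includes the 22.4%, and the second lies above the 21.4%.

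Without Pard3, the gene that prompted the choice, 15 of 55 regions (27.3%, 16.1 to 41.0) were gained in the partial-thickness wound, an interval that includes the 19.8% of all regions. In the full-thickness wound 20 of 55 (36.4%, 23.8 to 50.4) were gained, an interval above the 18.9%. Prkcz gave 7 of these 20 from its 8 regions. The share without both Pard3 and Prkcz was not computed, so a gain across the other genes is not shown. By gene, the partial-thickness and full-thickness wounds gained 14 and 14 regions at Pard3, 4 and 7 at Prkcz, 3 and 2 at Prkci, 3 and 2 at Pard3b, 2 and 3 at Pard6b, 2 and 3 at Pard6g, and 1 and 3 at Dlg1. Scrib and Llgl2 gained none in either. With the upper 50% of each list the counts were 4 and 7 at Pard3, 3 and 4 at Prkcz, 4 and 4 at Pard6g, 0 and 0 at Dlg1, and 1 and 2 at Scrib. The median over the 9 genes was 2 in the partial-thickness wound, beside 0 over all genes with a region, most of which have few regions (median 2).

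**Figure D3:**
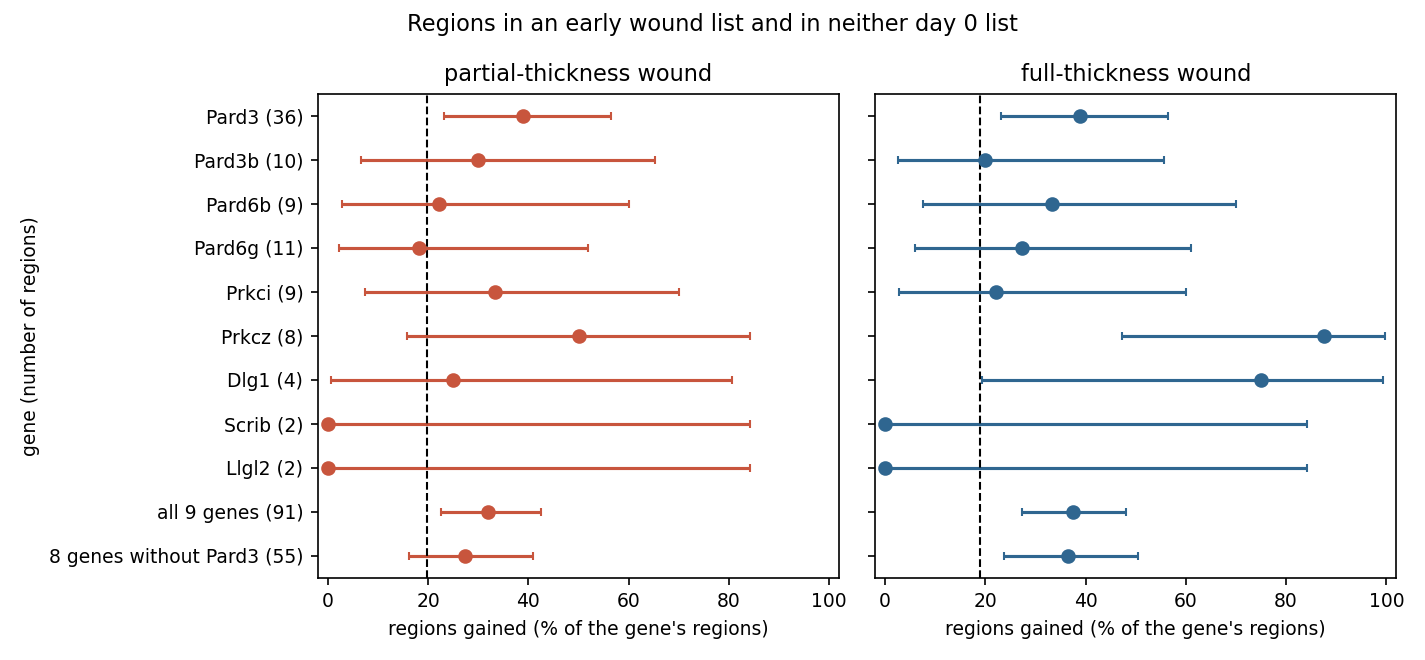
Share of each gene's regions (x axis, percent) present in an early wound list and in neither day 0 list, for the partial-thickness (left) and full-thickness wound (right). Bars are exact 95% intervals for counting error only, and dashed lines mark the share of all regions, 19.8% and 18.9%. Prkcz stands farthest right in the full-thickness panel, and most intervals of single genes cross the dashed line.

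Regions that all 3 early wound lists held and no other list held made up 8 of the 91 (8.79%, 3.87 to 16.6), beside 3.45% of all regions. Pard3 had 4 of them, Prkcz 2, and Prkci and Pard6g 1 each. With Pard3 left out they were 4 of 55 (7.27%, 2.02 to 17.6), an interval that includes the 3.45%. Lists differ in how weak a peak they keep: the lowest −log10 p of a list ran from 7.86 (day 80 epidermal) to 40.19 (day 7 partial-thickness), the number of peaks from 29365 (follicle) to 37214 (day 7 full-thickness) and the median peak width from 460 bp (day 80 full-thickness) to 987 bp (day 3 partial-thickness). The early wound lists are the longest and have the highest lowest −log10 p (39.70, 40.19 and 32.24). Gained polarity regions were weak peaks in the main, with a median score percentile within their own list of 28.0 at day 3, 17.7 at day 7 and 28.8 in the day 7 full-wound list. All gained regions had 27.3, 23.8 and 28.8, and polarity regions of all 8 lists had 76.0, 73.5 and 74.4. When only the stronger 50% of each list was used, the polarity genes had 47 regions, and 14 (29.8%) and 21 (44.7%) were gained in the partial-thickness and full-thickness wounds. In that setting the share gained exceeded that of all regions by 9.13 points (−3.31 to 24.2) in the partial-thickness wound, an interval that includes 0, and by 25.3 points (10.8 to 40.5) in the full-thickness wound. Both values include Pard3, which prompted the choice of genes, so they are a description and carry no test. The excess without Pard3 was not computed in this setting. With all lists at 29365 peaks, 20 (25.3%) and 22 (27.8%) of 79 regions were gained in the partial-thickness and full-thickness wounds. The shares exceeded those of all regions by 10.3 points (1.15 to 21.3) and 14.1 points (4.63 to 25.4). These values include Pard3 as well and carry no test. The part of the list thresholds in the gains was not tested otherwise.

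**Figure D4:**
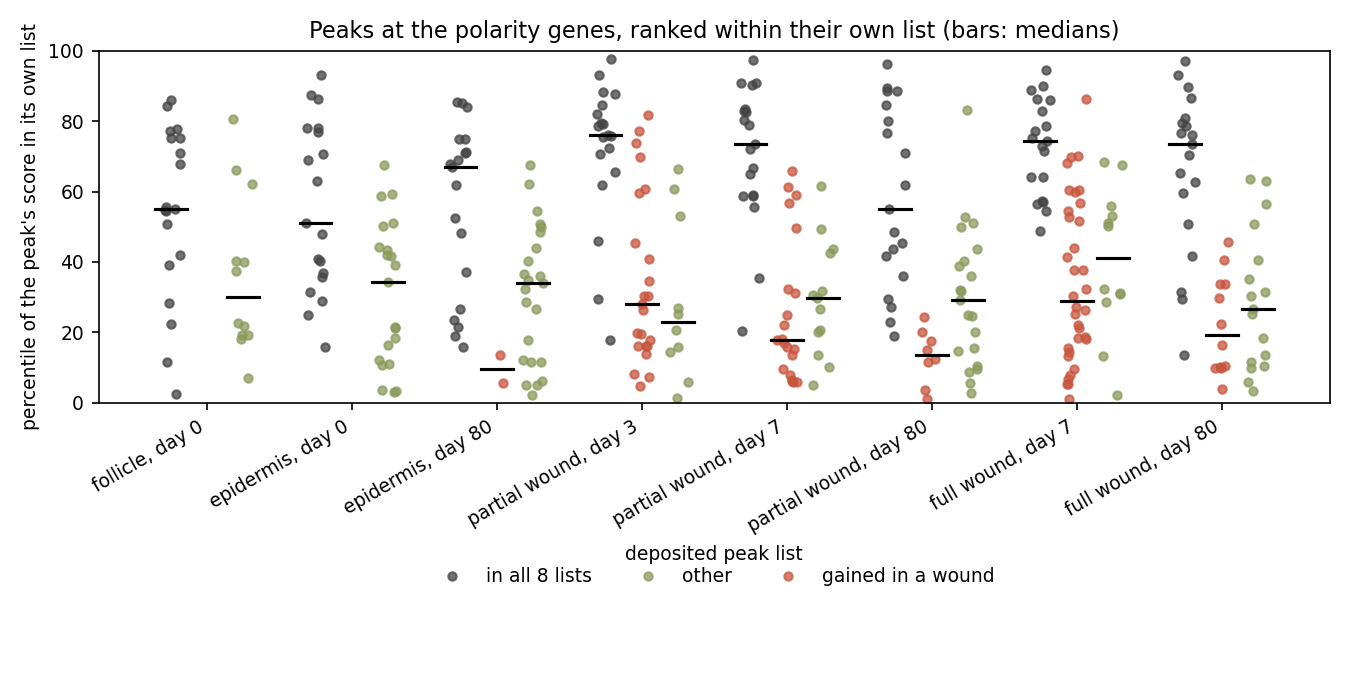
Percentile of each polarity peak's score within its own list (y axis) for the 8 lists (x axis). Points are peaks and bars are medians, for regions of all 8 lists (grey), regions gained in either wound (red) and other regions (green). In the day 3 and day 7 wound lists the grey medians lie between 73.5 and 76.0, and the red ones between 17.7 and 28.8.

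Pard3 encodes the Par3 scaffold that recruits the other apical proteins. It spans chr8:127063381-127612286 (549 kb, gene ID 93742) and had 36 regions, 32 of them inside the gene. The follicle list held 11, those of day 0 and day 80 epidermis 17 and 18, the partial-wound lists 17, 22 and 19 at days 3, 7 and 80, and the full-wound lists 24 and 21 at days 7 and 80. The day 3 partial-wound list thus had as many Pard3 regions as day 0 epidermis, and the change lay in which regions these were. Pard3 ranked 3 by number of gained regions in both wounds among 1591 genes with at least 8 regions. By share of its regions (38.9% in both) it ranked 145 and 164, so its rank by number goes with its many regions.

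The gained Pard3 regions were spread from 12.7 to 488.5 kb from the outer start. Both early partial-wound lists held 6 of them, and 4 of these were in the day 7 full-wound list and in no list outside these 3: chr8:127112565-127113818, chr8:127161357-127162567, chr8:127309082-127309858 and chr8:127551649-127553533. The third of these had the highest peaks of the 4 by the authors' fold enrichment over the local background: 12.8 at day 3, 13.2 at day 7 and 9.59 in the day 7 full-wound list. Its day 3 peak reached percentile 77.3 of its list, and the fourth reached 16.1. A further region, chr8:127178174-127179095, was listed in every wound group, 5 in all, and in none of the unwounded ones. Its fold enrichments were 7.93, 10.1 and 10.5 at days 3, 7 and 80 of the partial-thickness wound and 6.94 and 6.24 at days 7 and 80 of the full-thickness wound. By score its peaks ranked low in their lists, at percentiles 13.9, 17.7 and 24.4, then 14.3 and 9.86, in the same order. The sixth, chr8:127328841-127329304, was in the partial-wound lists of days 3, 7 and 80 and in the day 7 full-wound list.

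Pard3 also had regions that went the other way. Over the 9 genes, 6 regions (6.59%, 2.46 to 13.8) were in both unwounded epidermal lists and in no early wound list, beside 5.71% of all regions. Pard3 had 5 of these and Pard3b 1. At chr8:127131589-127132658 and chr8:127189708-127191578 the region was in both unwounded epidermal lists, in none of the early wound lists and in both day 80 wound lists. Another, chr8:127118045-127119237, followed the same course but was also in the follicle list. The highest Pard3 peak of the day 3 list by fold enrichment (13.0) was one of the 5 regions that every list held, chr8:127226934-127228651. At the edges of the 50 kb window, the farthest region counted to Pard3 was chr8:127025078-127026264, 37117 bp from the gene and in all 8 lists. The nearest one outside the window was chr8:127663259-127663738, at 50973 bp and in the day 80 epidermal list alone.

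**Figure D5:**
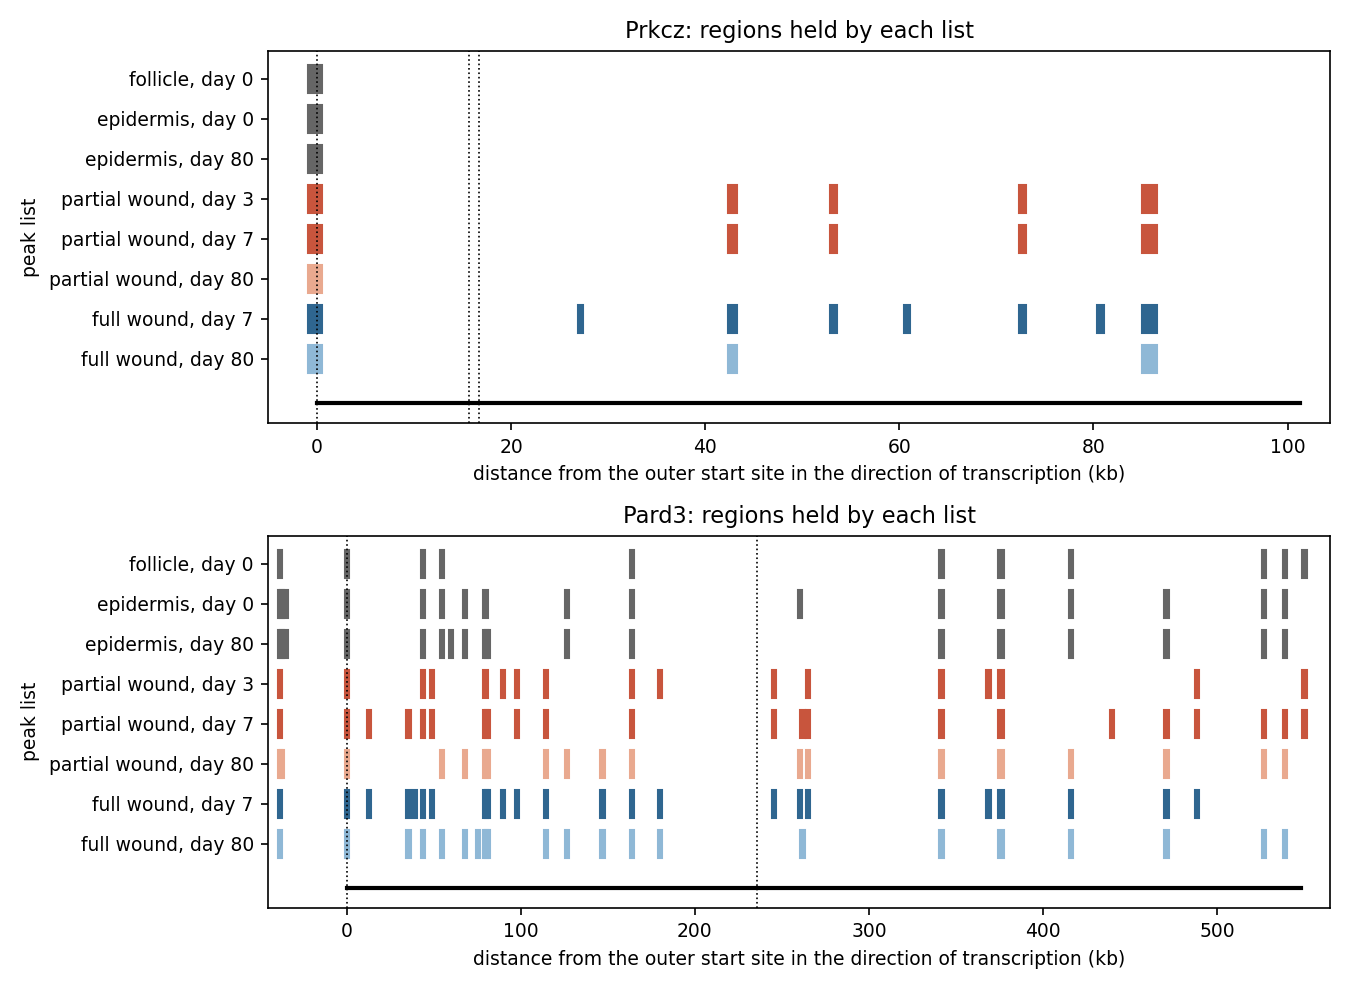
Regions of Prkcz (upper panel) and Pard3 (lower panel) held by each list, against the distance from the outer start in the direction of transcription (kb). Black lines are the genes and dotted lines RefSeq starts, and narrow regions are widened to be visible. Apart from the region over the outer start, which every list holds, the Prkcz regions appear in wound lists and in no unwounded list, while Pard3 has regions in all 8 lists along its whole length.

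Over all 8 lists, the genes with the pattern most like that of Pard3 were Taf1b, Mad1l1, Camk1d, Abca12 and Ust. Likeness was the Euclidean distance between the shares of a gene's own regions in the 8 lists, among 1038 genes with at least 10 regions, and the 5 distances ran from 0.136 to 0.174. Taf1b, a subunit of the RNA polymerase I selectivity factor, had 27.3% of its 11 regions in the follicle list and 72.7% in the day 7 full-wound list, where Pard3 had 30.6% and 66.7%.

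Pard3b, a second Par3 scaffold, spans 1004 kb (chr1:61638667-62642284, gene ID 72823) and had 10 regions, all inside the gene. The follicle list held 2, those of day 0 and day 80 epidermis 5 and 4, the partial-wound lists 5, 1 and 5 at days 3, 7 and 80, and the full-wound lists 3 and 2 at days 7 and 80. Pard3b was the member with the fewest regions in a day 7 list relative to its total, and at day 7 of the partial-thickness wound its sole region was chr1:62397858-62398962, which all lists held. That region was strong in the early wound, at percentile 97.7 at day 3 (fold enrichment 12.8) and 97.5 at day 7 (15.4). The region over the Pard3b start, chr1:61638355-61640074, was absent from both day 7 lists. The other start sites that had a region in any list had it in all 8. In the day 3 list the start region was near the limit of detection, at percentile 5.78 and a −log10 p 1.06 times the lowest of the list. In the day 0 epidermal list it was at percentile 58.6 and in the day 80 partial-wound list at 14.7. Gained Pard3b regions lay at chr1:62055152-62055670 (day 3 alone) and at chr1:62085728-62086733 and chr1:62551372-62551975 (day 3 and the day 7 full-wound list).

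Pard6b and Pard6g encode Par6 adaptors, which link the kinase to Par3 and to the small GTPase Cdc42. Pard6b (chr2:168081004-168101203, gene ID 58220) had 9 regions, 3 of them inside its 20.2 kb. Its lists held 4 (follicle), 4 and 5 (epidermis, days 0 and 80), 5, 7 and 6 (partial-thickness, days 3, 7 and 80) and 7 and 5 (full-thickness, days 7 and 80). A gained region of Pard6b, chr2:168065323-168067010, lies 13994 bp from the gene and was likewise in the 5 wound lists and absent from unwounded skin. Its peaks were of low to middling rank, at percentile 17.8 and 6.02 at days 3 and 7 and 15.1 at day 80 of the partial-thickness wound, and 32.2 and 29.8 at days 7 and 80 of the full-thickness wound. The highest Pard6b peak of the day 3 list (12.2) belonged to a region of all 8 lists, chr2:168072721-168073444.

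Pard6g (chr18:80046830-80119640, gene ID 93737) had 11 regions: 5 in the follicle list, 5 and 7 in the epidermal lists of days 0 and 80, 7, 8 and 7 in the partial-wound lists and 9 and 8 in the full-wound lists. Its highest day 3 peak was a gained one. The region chr18:80076582-80077813 was in the 3 early wound lists and no other, with fold enrichments of 11.9 at day 3, 11.1 at day 7 and 10.9 in the day 7 full-wound list, at percentiles 81.7, 32.4 and 86.2. Among the gained regions of the 9 genes, the day 3 and full-thickness percentiles were the highest. The other Pard6g region gained in both early partial-wound lists, chr18:80118533-80119257, was also in the day 80 epidermal list, so it was not gained when that list served as the reference.

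Prkci and Prkcz encode the atypical protein kinases C iota and zeta, the catalytic part of the apical complex. Prkci (chr3:30995742-31052740, gene ID 18759) had more listed regions than Prkcz before wounding. The follicle list held 4 of its 9 regions, the epidermal lists 5 and 6 at days 0 and 80, the partial-wound lists 8, 7 and 6 at days 3, 7 and 80 and the full-wound lists 7 and 5 at days 7 and 80. Of the 9, 4 were in all 8 lists, among them chr3:31022613-31023409 with the highest day 3 peak of the gene (8.38). Gained in both early partial-wound lists and the day 7 full-wound list were chr3:31033669-31034336, which no day 80 list held, and chr3:31060898-31061912, which the day 80 partial-wound list still held.

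Prkcz (chr4:155260118-155361428, gene ID 18762), from which the brain also makes a short form of the kinase through an internal start, had the largest share of gained regions among the 9 genes in both wounds. Each of the 3 unwounded lists held 1 of its 8 regions, the partial-wound lists held 5, 5 and 1 at days 3, 7 and 80 and the full-wound lists 8 and 3 at days 7 and 80. The region that every list held, chr4:155360906-155362292, covers the outer start printed above. The other 7 lie inside the gene, 27.2 to 85.8 kb from that start, and neither the follicle nor either epidermal list held any of them. All 7 were in the day 7 full-wound list. Of these, 4 were also in both early partial-wound lists: chr4:155274855-155276357, chr4:155288332-155289120, chr4:155307892-155308557 and chr4:155318139-155319123. None covered the middle or innermost start.

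The second of these 4 had the highest day 3 peak of Prkcz, above that of the start region. Its fold enrichment was 12.1 at day 3, 14.0 at day 7 and 10.2 in the day 7 full-wound list, against 9.59, 13.2 and 9.84 at the start region. By score, though, the start region ranked higher (percentile 87.6 at day 3, against 73.7). The third was weak in all 3 lists, at percentiles 7.31, 15.9 and 18.1. The share of Prkcz regions gained in the full-thickness wound, 87.5%, was reached by 3 of the 1591 genes with at least 8 regions and exceeded by none, where the median gene had 16.7%. Its partial-thickness share, 50%, stood at rank 31, tied among 33 genes, where the median was 18.2%. With 8 regions these shares are coarse, and their intervals run from 47.3% to 99.7% and from 15.7% to 84.3%. Of the 8 regions, 3 were in the day 7 full-wound list alone, so Prkcz met the floor of 8 regions only through that list. Both ranks are therefore a description and carry no test.

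Dlg1, Scrib and Llgl2 belong to the basolateral module, as scaffolds (Dlg1, Scrib) and as a target of the apical kinase (Llgl2). Dlg1 (chr16:31663443-31873356, gene ID 13383) had 4 regions in its 210 kb. The follicle list and both epidermal lists held 1, the partial-wound lists 2, 1 and 1 at days 3, 7 and 80 and the full-wound lists 4 and 2 at days 7 and 80. The region of all lists lies over the start. The other 3 were confined to wound lists: chr16:31763250-31764198 in the day 3 partial-thickness and both full-wound lists, and chr16:31775239-31776344 and chr16:31800518-31801025 in the day 7 full-wound list alone. These last 2 were weak there, at percentiles 6.75 and 13.2.

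Scrib (chr15:76047162-76069784, gene ID 105782) had 2 regions, and with whole lists neither was gained. The one at chr15:76068651-76070256 was in all 8 lists and overlaps the neighbouring gene Puf60 as well. The other, chr15:76047230-76048641, was in the follicle list, the day 3 partial-wound list and the day 7 full-wound list. Llgl2 (chr11:115824029-115855780, gene ID 217325) likewise had 2, a start region in all 8 lists (percentile 86.1 in the follicle list and 96.2 in the day 80 partial-wound list) and chr11:115838621-115839184, found in the day 80 partial-wound list alone.

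Before wounding, the order of follicle and epidermis at the polarity genes depended on the strength of the peaks counted. Of the day 0 pair, the follicle list alone held 5 of the 91 regions (5.49%, 1.81 to 12.4), beside 17.2% of all regions, and the epidermal list alone held 14 (15.4%, 8.67 to 24.5), beside 19.1%. Pard3 had 7 of the 14 and 1 of the 5. The follicle regions were chr8:127613595-127614655 (Pard3), chr2:168106788-168107297 and chr2:168114902-168117418 (Pard6b), chr18:80099999-80101241 (Pard6g) and the Scrib region above. All 5 were also in an early wound list, but this share was not counted over all regions of the follicle list alone. With the upper 50% of each list by score, the follicle list alone held 6 and the epidermal list alone 5, so the order turned. With the day 80 epidermal list as the reference, the counts were 3 and 16.

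Some gained regions were still listed at day 80. Of the 29 gained in the partial-thickness wound, the day 80 list of that wound held 6 (20.7%, 7.99 to 39.7), beside 18.5% of all gained regions. The day 80 list of the full-thickness wound held 9 (31.0%, 15.3 to 50.8), beside 21.6%, and the day 80 list of unwounded epidermis 2 (6.90%, 0.846 to 22.8), beside 10.4%. Of the 34 gained in the full-thickness wound, the same 3 lists held 7 (20.6%, 8.70 to 37.9), beside 20.2%, 11 (32.4%, 17.4 to 50.5), beside 23.0%, and 1 (2.94%, 0.0744 to 15.3), beside 10.8%. Each interval includes the share of all gained regions. In 17 of the 29 (58.6%, 38.9 to 76.5) and 21 of the 34 (61.8%, 43.6 to 77.8), no day 80 list held the region. Over all gained regions these shares were 67.2% and 65.6%, inside both intervals.

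A day 80 wound list held 12 of the 29 (41.4%, 23.5 to 61.1), beside 30.5% of all gained regions. Of these 12, 10 were not in day 80 epidermis (34.5% of the 29, 17.9 to 54.3, beside 22.5%). They were the Pard3 regions chr8:127099398-127099873, chr8:127178174-127179095, chr8:127243341-127244331, chr8:127325535-127326368 and chr8:127328841-127329304, and regions of the other genes described above (2 at Prkcz and 1 each at Pard6b, Prkci and Dlg1). The Prkcz regions at 42.8 and 85.8 kb from the outer start were in the day 80 full-wound list, with fold enrichments of 8.51 and 6.81, and no Prkcz region other than that of the start was in the day 80 partial-wound list. The exceptions held by day 80 epidermis were chr8:127144370-127145570 at Pard3 and the Pard6g region noted above. Held at day 80 and gained in the full-thickness wound alone were chr8:127210330-127211643 at Pard3 and chr18:80065131-80065682 and chr18:80115999-80116513 at Pard6g. Peaks of gained regions were weak at day 80, with a median percentile of 13.7 in the partial-wound list and 19.3 in the full-wound list.

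The other polarity genes were taken from lists by role. Of 32 further genes of the apical and lateral complexes, 29 had regions, and of their 236 regions the partial-thickness wound gained 35 (14.8%, 10.6 to 20.0) and the full-thickness wound 37 (15.7%, 11.3 to 21.0). Over all genes with a region the shares were 19.7% and 19.5%. Cdc42, the GTPase that binds Par6, had 6 regions: 1 in each unwounded list, 5, 4 and 3 in the partial-wound lists (days 3, 7 and 80) and 6 and 3 in the full-wound lists (days 7 and 80). Like Prkcz, it thus had 1 region in each unwounded list and all of its regions in the day 7 full-wound list. Frmd4a, a scaffold, gained 6 and 3 of 24 regions in the partial-thickness and full-thickness wounds, and Wwc1, which encodes Kibra, 4 and 3 of 10.

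Genes of planar cell polarity, which aligns cells and hairs within the skin surface, gained 27 (21.4%) and 22 (17.5%) of 126 regions. Vangl1, a membrane protein of that pathway, had 14 regions, with 8 and 5 gained. Its lists held 4 (follicle), 5 and 6 (epidermis), 10, 8 and 6 (partial-thickness) and 9 and 6 (full-thickness). Prickle2 gained 5 and 4 of 25 and Ror2 4 and 2 of 14. Genes of spindle orientation gained 7 (15.9%) and 9 (20.5%) of 44 regions, with Gnai3, Gnai2 and Gpsm2 at 2, 1 and 1 in the partial-thickness wound. Junction partners gained 30 (20.1%) and 32 (21.5%) of 149, led by Nectin1 and Magi1 with 4 each in both wounds and Tjp1 with 3 in both. Phosphoinositide and GTPase regulators gained 13 (14.9%) and 18 (20.7%) of 87, with 3 and 4 at Arhgap35, 2 and 2 at Inpp5d and 2 and 0 at Rock2. The intervals of these 5 lists include the share of all genes in both wounds.

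The cell labels were checked by the regions of marker genes. Krt14, a keratin of basal keratinocytes, had a region in every list, and Krt5 in every list but that of day 0 epidermis. Summed over 7 markers of basal keratinocytes there were 34 regions in the follicle list and 16 and 33 in the epidermal lists of days 0 and 80. The partial-wound lists had 43, 35 and 39 (days 3, 7 and 80) and the full-wound lists 41 and 27 (days 7 and 80). The day 0 epidermal list, a reference for gained regions, thus had the fewest. Summed over 8 markers of hair follicle stem cells there were 38 regions in the follicle list, 17 and 15 in the epidermal lists of days 0 and 80, 35, 33 and 13 in the partial-wound lists (days 3, 7 and 80), and 14 and 18 for the full wound (days 7 and 80). Summed over 4 markers of epidermal stem cells there were 12 regions in the follicle list and 29 and 32 in the epidermal lists. The partial-wound lists had 13, 16 and 29 and the full-wound lists 16 and 30. By this sum the day 7 full-wound list, labelled as epidermal progeny, lay nearer the follicle list, and by the follicle markers nearer the epidermal lists. In the follicle list, Bmp4 had 0 regions, Gata3 3, Tgfb2 4 and Tgfbr2 5. Of 7 immune markers, Cd3g, Cd4, Cd8a and Lyz2 had no region in any list, and the 7 together had 0 in the follicle list, 2 and 4 in the epidermal lists, 4 in each partial-wound list and 4 and 3 in the full-wound lists. The 4 endothelial markers, with Kdr at 0 in every list, had 7 in the follicle list, 5 and 6 in the epidermal lists, 11, 14 and 9 in the partial-wound lists and 8 and 7 in the full-wound lists. The 7 fibroblast markers, with Col3a1 and Lum at 0, had 8, 3 and 4, then 3, 2 and 4, then 3 and 4, in the same order. The 5 melanocyte markers had 14, 8 and 10, then 10, 9 and 9, then 12 and 11. Markers of Schwann cells and nerve (3) and of muscle (3) had at most 2 in any list. The part of other cell types in the gained polarity regions was not tested.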

How the data were processed

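Accessible chromatin of 24 ATAC-seq samples was analysed as 8 deposited peak lists of narrowPeak layout, 1 per group. Bowtie, Picard, MACS2 2.1.1.20160309, bedtools 2.29.2 and mm10 are named in the submitters' processing notes, with no role or order. Per the labels, nothing states whether samples were pooled for peak calling. The deposited peak score, the deposited fold enrichment (a ratio over local background) and the deposited −log10 p are the authors' values within a list, and were used to describe or rank peaks within that list. Read counts were not used here, so depth is unknown.

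The 267990 peaks were merged where they overlapped by at least 1 bp, with Python 3.11.15, numpy 2.4.6 and scipy 1.17.1. Regions were assigned to 21900 protein-coding entries of RefSeq on GRCm38.p6. At equal distance the gene with more overlap was taken, then the shorter gene, which touched 1 polarity region (Scrib). The table holds no exons, so positions within a gene are not split into exon, intron or UTR. Figures were drawn with matplotlib 3.10.9, and the merging and counting were tested on simulated peaks.

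The members and lists were chosen with earlier results of these data known. All members were named, and of each other list up to 3 genes with the most regions gained in the partial-thickness wound, ties by share, then by name. Regions printed by coordinates were those gained in both early partial-wound lists, those still listed in a day 80 wound list, the highest day 3 peak of each gene and those in the follicle list alone of the day 0 pair. Others were chosen after their values were seen. Alternatives were the overlap, list strength and length, assignment window and summit-based merging.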

Additional observations from a re-analysis of the deposited data

How the results depend on the processing

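No paired analysis was possible because each group came as 1 peak list, so the replicate numbers of the labels have no columns, and no replicate could be left out. Of the alternative values of the comparisons, 108 stayed within 1.5 times or within the interval of the reported value and 8 moved. The follicle-alone count of 5 became 9 with a coverage of at least 50% of the region asked for, 2 with regions inside the genes only and 3 with the day 80 epidermal list as reference. With the upper 50% of each list by score, the polarity genes had 47 regions, of which 14 were gained in the partial-thickness wound, 21 in the full-thickness wound, 5 were in the epidermal list alone of the day 0 pair and 6 in the follicle list alone, which turned the order of that pair. There the excess of the partial-thickness share over all regions, with Pard3 included, was 9.13 points (−3.31 to 24.2), beside 12 (2.65 to 22.6) as reported. With all lists at 29365 peaks, 22 of 79 regions were gained in the full-thickness wound. With Pard3 included, that share exceeded the share of all regions by 14.1 points (4.63 to 25.4), beside 18.4 (8.52 to 29.2) as reported. Fewer peaks enter both settings. For single genes, 167 values stayed and 31 moved. With the upper 50%, Pard3 had 4 and 7 gained in the partial-thickness and full-thickness wounds, Pard6g 4 in the former (2 as reported), Scrib 1 and 2 (0 as reported), Prkcz 4 in the latter and Dlg1 none. References by day 80 epidermis or by all 3 unwounded lists, regions over 1 kb from gene ends, and the day 3 or day 7 list alone were chosen after seeing the data. Against all 3 unwounded lists, 27 (29.7%) and 33 (36.3%) of the 91 regions were gained in the partial-thickness and full-thickness wounds. Of all regions, 17.8% and 16.9% were. With Pard3 left out the gains were 14 of 55 (25.5%, 14.7 to 39.0) and 20 of 55 (36.4%, 23.8 to 50.4). The first interval includes the 17.8%, and the second lies above the 16.9%. Depth is unknown, so a region below a list's threshold counts as absent.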

Other observations

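Summit positions were compared across lists within the polarity regions. In the 74 regions that at least 2 lists held, the summits lay within a median range of 69 bp, and the widest range was 1041 bp, at Pard6b. Regions were made by joining overlapping peaks, so a peak that had moved away would count as another region. The range was not computed over all regions, so whether peaks kept their position is not shown. The lists were also compared by the polarity regions that both of a pair held, as a share of those held by either. The 2 unwounded epidermal lists shared 78.7% of the polarity regions (71.0% of all regions) and the day 3 and day 7 partial-wound lists 66.7% (72.2%). Day 0 epidermis shared 37.3% with the day 3 partial-wound list (49.1%), 43.1% with day 7 (55.2%) and 69.2% with day 80 (67.6%), and 36.4% and 60.0% with the full-wound lists of days 7 and 80 (49.5% and 68.2%). For the follicle list, the shares with the partial-wound lists lay closer to those of all regions. They were 45.6% with day 3 (45.1%), 47.4% with day 7 (47.2%) and 46.3% with day 80 (43.7%). With the full-wound lists of days 7 and 80 they were 35.2% (38.7%) and 51.9% (43.6%). These pairs share lists and carry no test.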
